A study of Homo sapiens
Mus musculus with 6 samples.

Results

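The C2C12-Notch1 line was compared with the C2C12-control line across all mouse genes. C2C12 is a mouse myoblast line, a precursor of skeletal muscle that proliferates in culture and can be made to fuse into myotubes. The C2C12-Notch1 line stably carries full-length Notch1, and both lines were read in co-culture with human HEK293-Flp-In kidney cells. Each line was placed beside 3 HEK lines, HEK-control, HEK-Jag1WT (carrying the wild-type Notch ligand Jag1) and HEK-Jag1Ndr (carrying Jag1 with the Nodder missense change). This gave 3 C2C12-Notch1 wells and 3 C2C12-control wells, which are the 6 wells of the series. The wells were chosen by the label of the C2C12 line alone and paired by the HEK line in them. In all 6 wells the C2C12 cells settled for 8 h and were transfected with 1.6 ug of empty pcDNA5 plasmid. HEK cells were added 18 h after transfection, and RNA was taken after 6 h of co-culture. The labels give the mouse genotype as Notch1 expression for the C2C12-Notch1 line and as wild type for the C2C12-control line. They give 1 ug/mL puromycin for the C2C12-Notch1 line and 300 ug/mL hygromycin for the Jag1 lines. No puromycin is listed for the C2C12-control line, so puromycin and the C2C12 line cannot be told apart. Each C2C12 genotype was represented by 1 line, so the comparison is between these lines. Whether either is a clone, and which promoter drives Notch1, is not stated in the labels. No label speaks of separate cultures, so the p-values speak of the variation among these wells and may reflect technical variation only.

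Notch1 is a transmembrane receptor. A ligand such as Jag1 on a neighbouring cell triggers its cleavage, and the released intracellular part enters the nucleus, where it acts with Rbpj to switch on genes such as Hey1, Heyl and Nrarp. In the muscle lineage Notch signalling is known for holding precursors back from differentiation, while Myod1 and Myog drive them toward it.

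Levels are given as RPKM, the authors' read count scaled by a length per gene and by the total of mouse reads. They are listed in the order HEK-control, HEK-Jag1WT and HEK-Jag1Ndr within each line. Averages are the mean ± SD over the 3 wells of a line. Notch1 had 174, 179 and 158 RPKM in the C2C12-Notch1 wells, against 9.06, 20.4 and 12.7 RPKM in the C2C12-control wells. The lines did not overlap, and the log2 difference of 3.62 (SE 0.294, edgeR adjusted p 0.0086) was carried by every pair of wells. Without either well with HEK-Jag1Ndr it was 3.61, with an edgeR adjusted p of 0.105. Mouse reads made up 33.2% ± 3.46 of all gene reads in the C2C12-Notch1 wells and 49.8% ± 2.76 in the C2C12-control wells (SD, n = 3 each; two-sided exact permutation p 0.1, the smallest that 3 against 3 wells can give). Mouse gene reads per well ranged from 2263529 to 5203506 in the C2C12-Notch1 wells and from 3983213 to 7965231 in the C2C12-control wells. Human reads per mouse read came to 1.98 in C2C12-Notch1 wells, against 0.989 in C2C12-control wells, so a mouse gene whose reads came from HEK cells would stand near a log2 difference of 0.999. Jag1 reads followed the HEK line, with a log2 difference of 1.09. In these mixed wells, fewer cells of a kind and less RNA per cell cannot be told apart.

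The lines differed at most genes, mostly by small amounts. Of 11154 tested genes, 6446 passed an edgeR adjusted p of 0.05 (57.8%), 3174 of them higher (28.5%) and 3272 lower (29.3%) in C2C12-Notch1 wells. More than 2-fold changes were less even in number. There were 322 genes more than 2-fold higher (2.89% of those tested) and 723 more than 2-fold lower (6.48%). Beyond a log2 difference of 3 the counts were 26 higher and 180 lower. The median over all tested genes was 0.0037, and among called genes the median size was 0.453 on the log2 scale. Of the called genes, 6264 (97.2%) had the same sign in all 3 pairs of wells. RPKM did not overlap between the 3 and 3 wells for 6495 tested genes (58.2%). A lack of overlap named for single genes is read against this share. The DESeq2 Wald test called 1628 genes higher and 1913 lower, and a test against a 1.2-fold change called 1520 and 1906. Counts of list members below are read against these shares of all genes, and all differences are C2C12-Notch1 minus C2C12-control. A value given for a gene with no unit is its log2 difference.

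**Figure D1:**
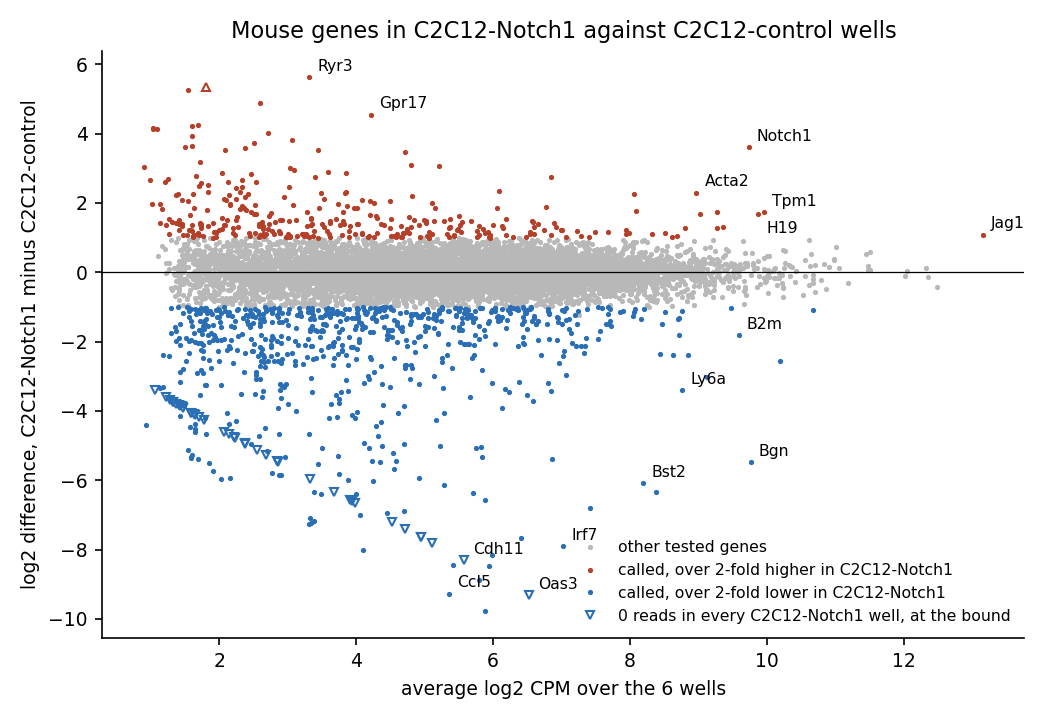
Each of the 11154 tested mouse genes is drawn by its average level (log2 CPM over the 6 wells, x axis) and its log2 difference between C2C12-Notch1 and C2C12-control wells (y axis). Genes past 2-fold in either direction are coloured, and triangles are genes with 0 reads in every well of 1 line, drawn at their bound; 723 coloured genes lie below 0 and 322 above it, and the lowest reach further from 0 than the highest.

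The genes with the largest gains or losses in RPKM were of mixed kinds. Tpm1, a tropomyosin of actin filaments, had 974, 1066 and 1053 RPKM in the C2C12-Notch1 wells, against 296, 315 and 301 RPKM in the C2C12-control wells (log2 difference of 1.74 (SE 0.0457, edgeR adjusted p 2.7e-37)). Gsta4, a glutathione transferase that clears lipid aldehydes, had 912, 939 and 958 RPKM in the C2C12-Notch1 wells, against 383, 361 and 395 RPKM in the C2C12-control wells. H19, an imprinted noncoding RNA, had 593, 576 and 546 RPKM in the C2C12-Notch1 wells, against 173, 177 and 179 RPKM in the C2C12-control wells. All 3 were higher in every C2C12-Notch1 well than in any C2C12-control well. Ftl1, the ferritin light chain, averaged 3914 ± 499 RPKM in C2C12-Notch1 wells against 2509 ± 169 RPKM in C2C12-control wells. Tmsb4x, which binds actin monomers, averaged 1824 ± 78.5 RPKM in C2C12-Notch1 wells against 1297 ± 26.7 RPKM in C2C12-control wells. Txnrd1, a thioredoxin reductase, averaged 629 ± 15.3 RPKM in C2C12-Notch1 wells against 325 ± 14.5 RPKM in C2C12-control wells. The ribosomal protein genes Rplp1, Rpl8 and Rpl4 were also among the 10 largest gains in RPKM, each by a log2 difference under 1, at 0.38, 0.24 and 0.57, and Rpl8 did not pass the test against a 1.2-fold change (edgeR adjusted p 0.756).

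On the other side, Ly6a, a GPI-anchored surface protein known as Sca-1, had 111, 105 and 105 RPKM in the C2C12-Notch1 wells, against 1157, 1026 and 1177 RPKM in the C2C12-control wells. Spp1, the secreted phosphoprotein osteopontin, had 3599, 3099 and 3609 RPKM in the C2C12-Notch1 wells, against 4679, 4301 and 4581 RPKM in the C2C12-control wells, a log2 difference of -0.41 on a gene that stayed among the most abundant in both lines. Bgn, the proteoglycan biglycan, had 17.3, 12.9 and 15.8 RPKM in the C2C12-Notch1 wells, against 715, 677 and 678 RPKM in the C2C12-control wells. Hspb1, a small heat shock protein, had 472, 418 and 434 RPKM in the C2C12-Notch1 wells, against 1052, 1004 and 1084 RPKM in the C2C12-control wells. In each of these genes every C2C12-Notch1 well lay below every C2C12-control well. Ifitm3, B2m, Ly6e and Bst2, described with the interferon genes, and Ldha, described with glycolysis, complete the 10 largest losses together with Prl2c3, at -2.21, whose reads are uncertain because near-identical family members share its sequence. Prl2c3 averaged 1351 RPKM on 59 summed reads in C2C12-Notch1 wells and 5796 RPKM on 384 in C2C12-control wells. Tpm1 averaged 1031 RPKM on 17427 reads in C2C12-Notch1 wells. The length that scaled Prl2c3 was thus far smaller, and its place by RPKM rests on few reads.

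Ranked by log2 difference among genes of moderate level, the gains included ion channel and receptor genes at low levels. Ryr3, an intracellular calcium release channel, had 1.47, 1.39 and 1.47 RPKM in the C2C12-Notch1 wells, against 0.0488, 0.0421 and 0.00814 RPKM in the C2C12-control wells. Gpr17, a G protein-coupled receptor, had 9.45, 7.16 and 7.2 RPKM in the C2C12-Notch1 wells, against 0.225, 0.238 and 0.401 RPKM in the C2C12-control wells. Nkx2-5, a homeobox factor of heart muscle, had 9.84, 11 and 6.83 RPKM in the C2C12-Notch1 wells, against 0.658, 0.142 and 0.658 RPKM in the C2C12-control wells. These transcripts were near 0 in C2C12-control wells and low or moderate in C2C12-Notch1 wells, with log2 differences of 5.62, 4.55 and 4.03. Pappa, a protease that cleaves insulin-like growth factor binding proteins, rose by 3.08, Slc24a3, a sodium-calcium exchanger, by 3.54, Igfn1, a muscle immunoglobulin-domain protein, by 4.89, Arpp21 by 3.59, Ogdhl by 3.82 and Prr9 by 3.01. Mmp15, a membrane-bound metalloprotease, rose by 3.47, Kif1a, a kinesin motor, by 3.72 and Onecut2, a transcription factor, by 3.54. For several of these genes the same-named human gene had more reads than the mouse gene, 1268 for NKX2-5, 11136 for MMP15, 20833 for KIF1A and 2977 for ONECUT2 over the 6 wells. At least 5 times more human reads were also found for Efna5, Hoxb3, Kif5c, Mkx, Nrarp, Peg10, Plagl1 and Trib3, which are described as higher further on. Among lower genes this held for Adm, Cd55, Flt1, Gpx3, Ifih1, Igf2r, Lama4, Rbpj, Rftn1, Slc2a3, Slit2, Trim44 and Wnt5a. The part of misassigned human reads in any of them was not tested. Over all tested genes, 1044 had a same-named human gene with at least 5 times more reads, and of these 67 were more than 2-fold higher and 98 more than 2-fold lower.

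A set of genes was present in C2C12-control wells and at or near 0 in C2C12-Notch1 wells. There were 46 genes with at most 3 reads summed over the C2C12-Notch1 wells and at least 100 over the C2C12-control wells, and 0 genes with the reverse. These limits are in raw reads, not scaled by depth. Mouse reads per well were 2263529 to 5203506 in C2C12-Notch1 and 3983213 to 7965231 in C2C12-control wells, so the reverse was harder to meet. Of the 46, 14 belonged to the list of interferon-stimulated genes and 32 did not. Cdh11, a cadherin of mesenchymal cells, had 0 reads in all 3 C2C12-Notch1 wells, against 15.7, 24.5 and 20.1 RPKM in the C2C12-control wells. It was at least 316-fold lower (against a floor of 3 reads over the 3 wells). Colec12, a scavenger receptor with a collagen-like stalk, was at least 225-fold lower and Evc, a protein of the base of the primary cilium, at least 200.2-fold lower. Evc2, the partner of Evc, was among the 46 genes too, with 3 reads in the C2C12-Notch1 wells and 607 in the C2C12-control wells. Others with 0 reads were Trim44, at least 168-fold lower, Mfsd9, at least 80.5-fold, Rftn1, a lipid raft protein, at least 62.1-fold, and I830012O16Rik, at least 97.1-fold.

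Interferon-stimulated genes, the antiviral genes that cells switch on when interferon binds its receptor, were lower in C2C12-Notch1 wells, some of them near 0. They summed to 607 to 662 RPKM in C2C12-Notch1 wells, against 3901 to 4551 RPKM in C2C12-control wells. Of 50 listed, 47 were tested, 46 fell, all 46 of these more than 2-fold, and 0 rose. The median was -5.69, or -5.45 with genes at 0 reads set to their bound. Leaving out each well in turn left 46 to 47 lower. Bst2, which tethers budding virus to the cell, had 11.2, 10.7 and 9.51 RPKM in the C2C12-Notch1 wells, against 734, 656 and 709.9 RPKM in the C2C12-control wells. Isg15, a ubiquitin-like modifier, had 5.9, 10.1 and 5.75 RPKM in the C2C12-Notch1 wells, against 249, 283 and 328 RPKM in the C2C12-control wells. Lgals3bp, a secreted glycoprotein, had 3.95, 1.94 and 3.9 RPKM in the C2C12-Notch1 wells, against 284, 275 and 293 RPKM in the C2C12-control wells. These transcripts were among the more abundant of the C2C12-control line and fell to a few percent of that level. All 7 listed oligoadenylate synthetase genes, sensors of double-stranded RNA, fell. Oas3 had 0 reads in C2C12-Notch1 wells and was at least 634-fold lower. Oas2 had 1 read in C2C12-Notch1 wells against 1719 reads in C2C12-control wells, a fold of 1187 (95% counting interval 213 to 46900). Oas1a, Oas1b and Oas1g, whose near-identical copies make the split between them uncertain, had 0 reads each in C2C12-Notch1 wells. Among guanosine triphosphatases of cell-autonomous defence, Iigp1 was at least 100.3-fold lower. The log2 differences were -5.01 for Igtp, -5.07 for Irgm2 and -6.14 for Gbp3.

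A smaller group of the list kept a readable level. Ifitm3, which blocks virus entry at the endosome, had 249, 232 and 248 RPKM in the C2C12-Notch1 wells, against 1264, 1156 and 1361 RPKM in the C2C12-control wells. Its neighbour in the family Ifitm2 averaged 224 ± 20.6 RPKM in C2C12-Notch1 wells against 234 ± 9.08 RPKM in C2C12-control wells, with a log2 difference of -0.06 that was not called (edgeR adjusted p 0.443). Trim25, Ifi35 and Eif2ak2, the kinase PKR, fell least among the called members, at -1.36, -1.37 and -1.43. Ly6e, an interferon-inducible surface protein outside the list, averaged 169.7 ± 14 RPKM in C2C12-Notch1 wells against 1002 ± 26.1 RPKM in C2C12-control wells.

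**Figure D2:**
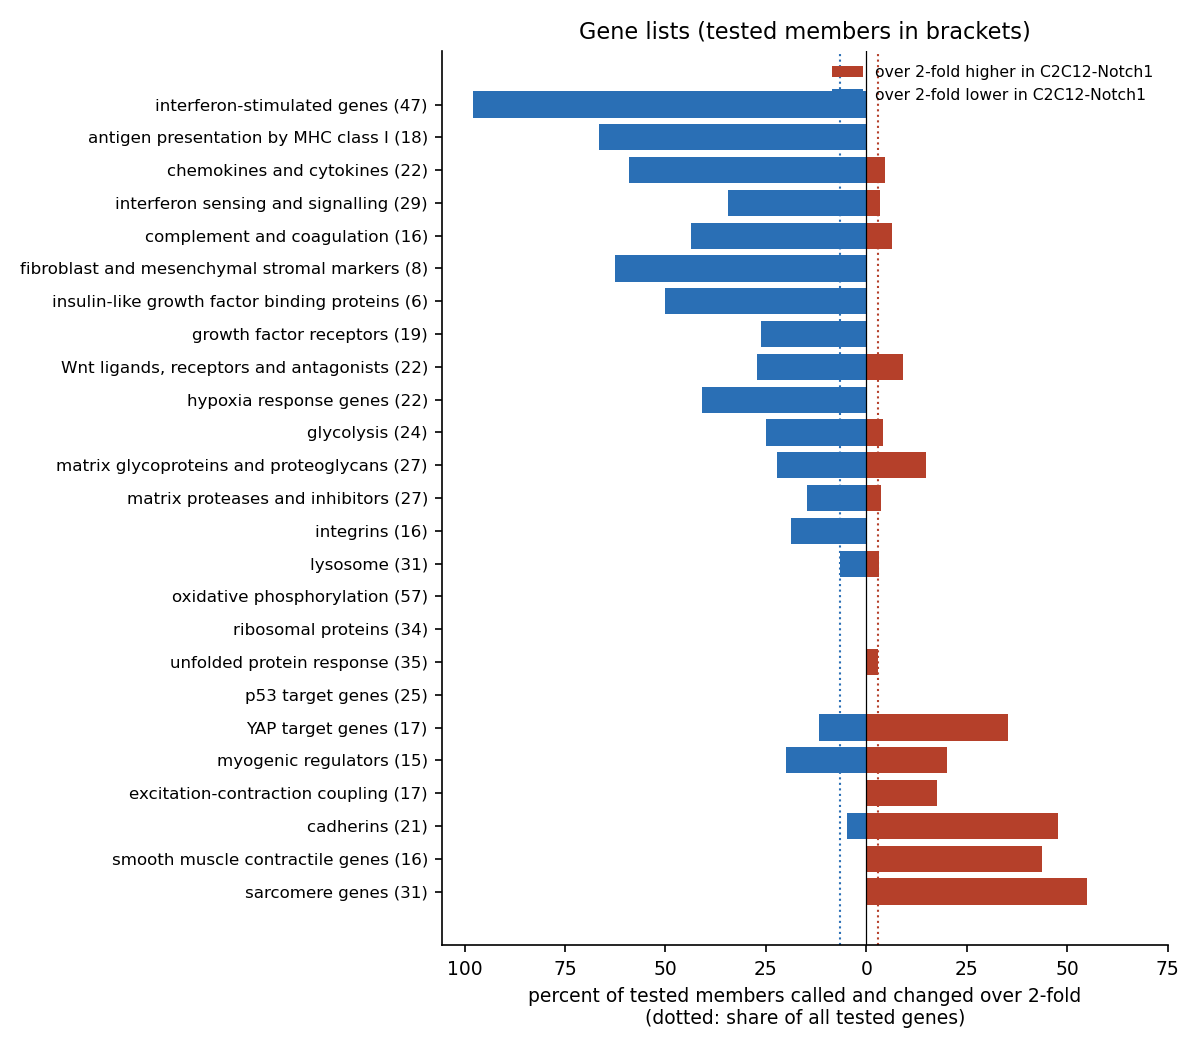
For each gene list, bars give the percent of tested members called and more than 2-fold higher (right) or lower (left) in C2C12-Notch1 wells, with the dotted lines at the shares of all tested genes, 2.89% and 6.48%. Interferon-stimulated genes reach furthest to the left and sarcomere genes furthest to the right, while oxidative phosphorylation and ribosomal protein genes have no member past 2-fold.

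The machinery that senses and relays interferon was lower as well. Of 31 listed genes 29 were tested, 21 fell, 10 of them more than 2-fold, and 2 rose, with a median of -0.54. Only 1 rose when any 1 well was left out, by DESeq2 or in the test against a 1.2-fold change. Irf7, the factor that amplifies interferon production, had 0.491, 0.251 and 0.738 RPKM in the C2C12-Notch1 wells, against 126, 108 and 139.5 RPKM in the C2C12-control wells. Stat2, which carries the signal to the nucleus, averaged 9.36 ± 1.6 RPKM in C2C12-Notch1 wells against 45.9 ± 7.27 RPKM in C2C12-control wells. Irf9, its DNA-binding partner, averaged 3.02 ± 0.404 RPKM in C2C12-Notch1 wells against 50.5 ± 2.69 RPKM in C2C12-control wells. In all 3 the lines did not overlap. The RNA sensors Ifih1 and Ddx58, known as MDA5 and RIG-I, fell, at -3.60 and -3.42, as did the adaptor Tmem173, known as STING, at -1.61.

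No interferon receptor gene changed more than 2-fold. Of the 7 receptor and Janus kinase genes, 5 fell and 0 rose, with Ifnar1 at -0.45 and Tyk2 at -0.86. Mb21d1, the DNA sensor cGAS, averaged 8.37 ± 0.638 RPKM in C2C12-Notch1 wells against 3.95 ± 0.422 RPKM in C2C12-control wells. Its log2 difference was 1.04, the other way (edgeR adjusted p 1.83e-10). Type I interferon genes themselves had almost no reads, with 3 in the C2C12-Notch1 wells and 5 in the C2C12-control wells over 14 genes, so no difference was detectable at this depth.

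Genes for MHC class I presentation, which displays peptides at the cell surface, fell together. Of 18 tested out of 25 listed, 14 fell, 12 more than 2-fold, and 0 rose (median -1.65). The heavy chain gene H2-K1 had 84.5, 78.7 and 75 RPKM in the C2C12-Notch1 wells, against 418, 391 and 421 RPKM in the C2C12-control wells, though the heavy chains share sequence and their split is uncertain. B2m, the common light chain, had 385, 386 and 395 RPKM in the C2C12-Notch1 wells, against 1385, 1317 and 1376 RPKM in the C2C12-control wells. Tapbp, the tapasin that loads peptide, averaged 40.4 ± 5.39 RPKM in C2C12-Notch1 wells against 207 ± 10.6 RPKM in C2C12-control wells. The immunoproteasome subunit Psmb8 averaged 0.27 ± 0.0803 RPKM in C2C12-Notch1 wells against 13.7 ± 3.25 RPKM in C2C12-control wells. The peptide transporter subunits Tap1 and Tap2 fell, at -1.93 and -0.96.

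Most tested chemokine and cytokine genes fell. Of 40 chemokine and cytokine genes 22 were tested, 18 fell, 13 more than 2-fold, and 3 rose (median -1.53). Ccl5, a chemokine for T cells, had 0.362, 0 and 0 RPKM in the C2C12-Notch1 wells, against 131, 112 and 147 RPKM in the C2C12-control wells, a fold of 813 (95% counting interval 146 to 32120). Cxcl10, another interferon-inducible chemokine, averaged 0.484 ± 0.315 RPKM in C2C12-Notch1 wells against 27.4 ± 5.63 RPKM in C2C12-control wells. Il33, a nuclear cytokine of stromal cells, averaged 5.61 ± 2.83 RPKM in C2C12-Notch1 wells against 59 ± 3.44 RPKM in C2C12-control wells. Ccl2 and Ccl7, which draw monocytes, both fell. Ccl2 averaged 15.5 ± 0.863 RPKM in C2C12-Notch1 wells against 52.8 ± 9.47 RPKM in C2C12-control wells. Ccl7 averaged 10.2 ± 2.76 RPKM in C2C12-Notch1 wells against 31.9 ± 5.08 RPKM in C2C12-control wells. The exceptions were Il1r1, the interleukin 1 receptor, at 1.19, Csf1, a macrophage growth factor, at 0.47 and Ccl25 at 0.75. Without the HEK line term Csf1 and Ccl25 had edgeR adjusted p values of 0.0521 and 0.0701, and Ccl25 was also lost when any 1 well was left out. Among 16 tested complement and coagulation genes 11 fell, 7 more than 2-fold, and 4 rose (median -0.86). Without either well with HEK-Jag1Ndr, and by DESeq2, 2 rose. Cd55, which shields cells from complement, was at -4.11 and Thbd, the thrombomodulin gene, at -3.87. Plau, the urokinase activator of plasminogen, averaged 278 ± 28.5 RPKM in C2C12-Notch1 wells against 114 ± 18.8 RPKM in C2C12-control wells.

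**Figure D3:**
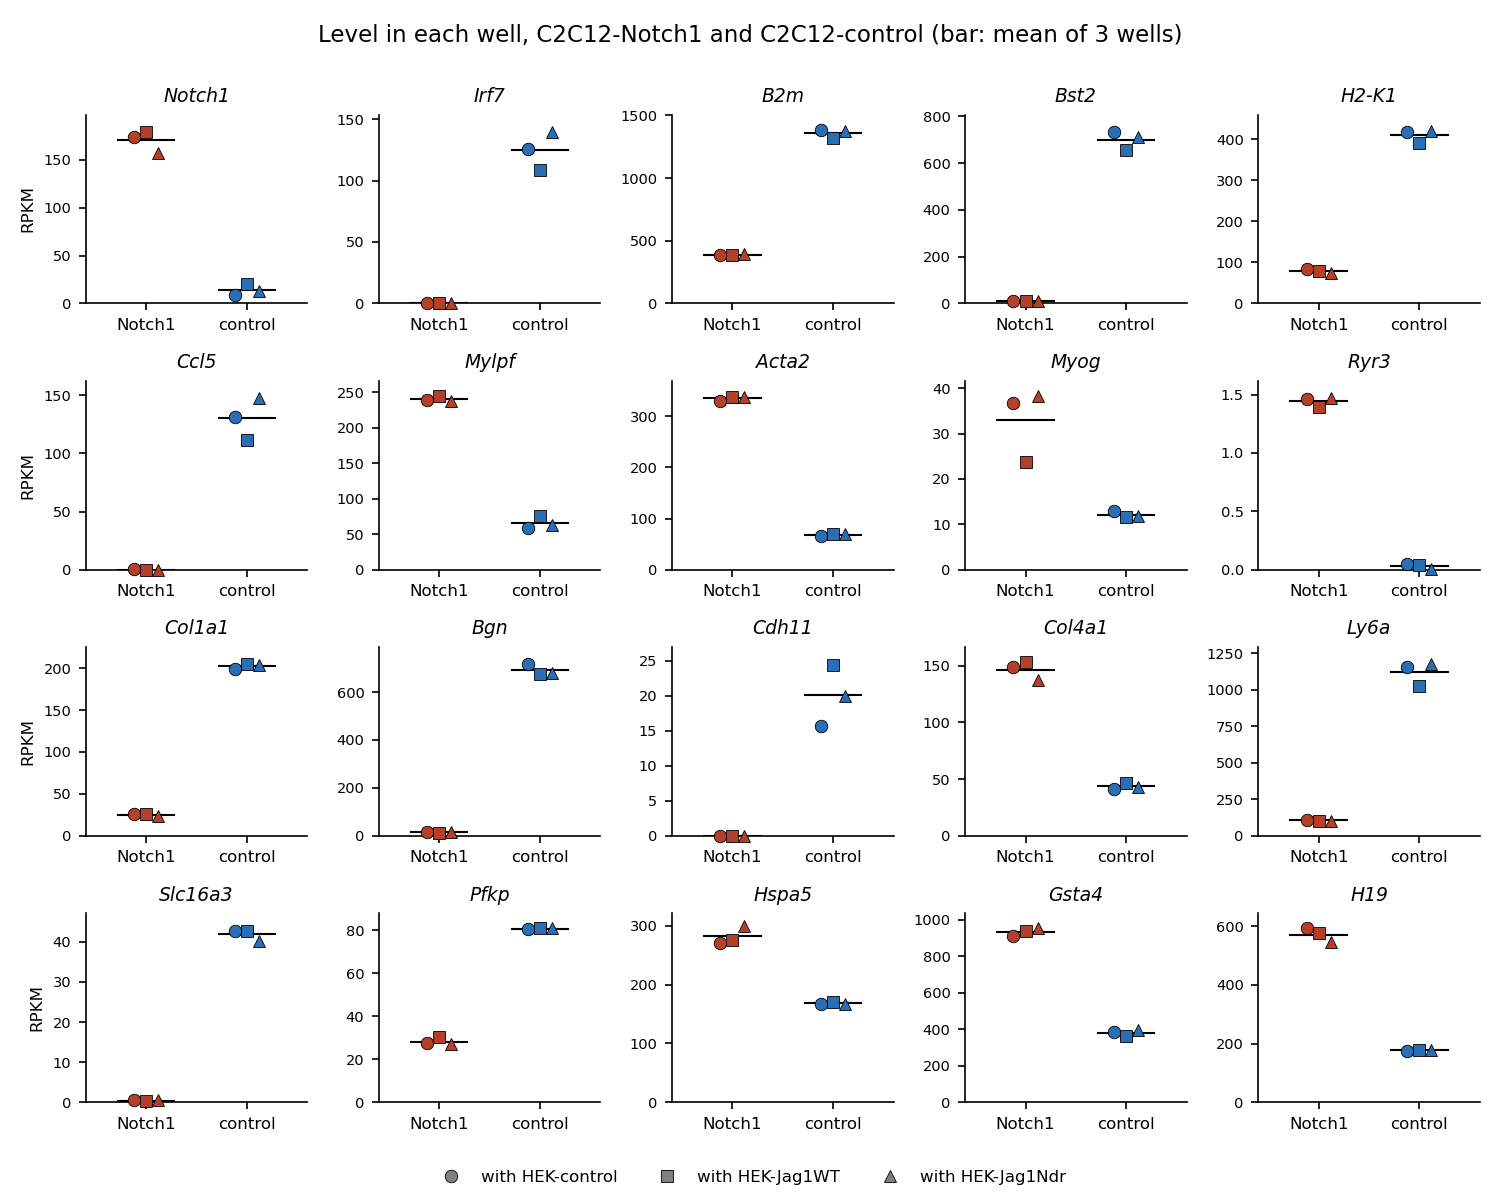
RPKM in each well for 20 genes, with C2C12-Notch1 wells on the left and C2C12-control wells on the right of each panel, a marker shape per HEK line and a bar at the mean of 3 wells. In all 20 panels the 3 wells of one line lie apart from the 3 wells of the other, as they do for 58.2% of all tested genes.

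Muscle contractile genes were higher in C2C12-Notch1 wells. Of 40 sarcomere genes 31 were tested, 24 rose, 17 more than 2-fold, and 2 fell (median 1.10). Leaving out each well in turn gave 23 to 25 higher. In the thin filament, 6 of the 7 troponin genes rose. The slow troponin C gene Tnnc1 had 113, 92.6 and 102 RPKM in the C2C12-Notch1 wells, against 32.4, 34.6 and 32.3 RPKM in the C2C12-control wells. The fast troponin I gene Tnni2 averaged 44.3 ± 1.64 RPKM in C2C12-Notch1 wells against 13.7 ± 1.67 RPKM in C2C12-control wells. Troponin T split by isoform, with the slow skeletal Tnnt1 at 2.06 and the cardiac and embryonic Tnnt2, the most abundant, at -0.02 and not called. The fast skeletal Tnnt3 averaged 48.1 ± 5.67 RPKM in C2C12-Notch1 wells against 17.4 ± 2.51 RPKM in C2C12-control wells. In the thick filament, Mylpf, the fast myosin light chain, had 239.5, 244 and 238 RPKM in the C2C12-Notch1 wells, against 58.9, 75.2 and 63.1 RPKM in the C2C12-control wells. The adult fast myosin heavy chain Myh4 averaged 1.07 ± 0.192 RPKM in C2C12-Notch1 wells against 0.137 ± 0.0866 RPKM in C2C12-control wells. Myh1 averaged 3.46 ± 0.679 RPKM in C2C12-Notch1 wells against 1.18 ± 0.222 RPKM in C2C12-control wells. The embryonic Myh3 averaged 9.24 ± 1.55 RPKM in C2C12-Notch1 wells against 6.88 ± 0.695 RPKM in C2C12-control wells. The giant proteins Ttn and Neb, the spring and the ruler of the sarcomere, rose by 1.44 and 1.48 with means under 1 RPKM in both lines. Des, the muscle intermediate filament, fell, at -0.61. Tpm3, at -0.19, was not called by DESeq2 (adjusted p 0.0523).

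Genes that couple excitation to contraction moved mostly upward as well. Of 17 tested, 10 rose, 3 more than 2-fold, and 3 fell (median 0.71). Only 1 fell without either well with HEK-control, by DESeq2 and in the test against a 1.2-fold change, and 2 without any other well. Besides Ryr3, Ryr1, the calcium release channel of skeletal muscle, averaged 2.88 ± 0.591 RPKM in C2C12-Notch1 wells against 0.876 ± 0.189 RPKM in C2C12-control wells. Trdn, triadin, which anchors it, averaged 1.29 ± 0.0727 RPKM in C2C12-Notch1 wells against 0.0783 ± 0.0207 RPKM in C2C12-control wells. Jph2, which holds the junction together, averaged 54.5 ± 8.19 RPKM in C2C12-Notch1 wells against 30.7 ± 5.52 RPKM in C2C12-control wells. Atp2a1, the fast calcium pump, averaged 6.71 ± 1.08 RPKM in C2C12-Notch1 wells against 3.56 ± 0.434 RPKM in C2C12-control wells. Orai1, the channel for store-operated calcium entry, was at -0.75 and Stim1, its sensor, at 0.71. At the neuromuscular junction 7 of 13 tested genes rose (53.8%) and 5 fell (38.5%). The receptor pair Musk and Lrp4 rose by 0.92 and 1.32, and the fetal acetylcholine receptor subunit Chrng by 1.11, while their ligand Agrn, agrin, averaged 16.4 ± 1.15 RPKM in C2C12-Notch1 wells against 37.2 ± 0.773 RPKM in C2C12-control wells. Of 10 tested genes of creatine and muscle metabolism 4 rose and 1 fell, or 0 fell without either well with HEK-control and by DESeq2. Mb, myoglobin, averaged 22.8 ± 1.8 RPKM in C2C12-Notch1 wells against 6.16 ± 1.07 RPKM in C2C12-control wells. Ckm, muscle creatine kinase, averaged 7.66 ± 1.39 RPKM in C2C12-Notch1 wells against 2.29 ± 0.698 RPKM in C2C12-control wells.

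Most tested smooth muscle contractile genes were higher too, and this list shares Tpm1, Tpm2 and Des with the sarcomere list. Of its 19 members Myh11, Myocd and Lmod1 were not tested, with at most 1, 3 and 7 reads in any well. Of 16 tested, 13 rose, 7 more than 2-fold, and 2 fell (median 0.86). Acta2, smooth muscle actin, had 329.5, 338 and 338 RPKM in the C2C12-Notch1 wells, against 65.2, 69 and 68.9 RPKM in the C2C12-control wells. Tagln, an actin cross-linker, had 297, 332 and 309 RPKM in the C2C12-Notch1 wells, against 65, 66.5 and 63.4 RPKM in the C2C12-control wells. Cnn1, calponin, had 7.6, 9.91 and 8.05 RPKM in the C2C12-Notch1 wells, against 0.757, 0.871 and 1.39 RPKM in the C2C12-control wells. Each well of the C2C12-Notch1 line stood above every well of the other for all 3. Smtn, smoothelin, fell, at -0.83.

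Myogenic transcription factors did not move as 1 block. Of 15 tested, 9 rose and 3 fell (median 0.40). Myod1, which commits cells to muscle, had 91.1, 52.2 and 96.2 RPKM in the C2C12-Notch1 wells, against 49, 27.8 and 47.3 RPKM in the C2C12-control wells. Myog, which starts differentiation, had 36.7, 23.8 and 38.3 RPKM in the C2C12-Notch1 wells, against 12.9, 11.6 and 11.7 RPKM in the C2C12-control wells. Pax7, a marker of muscle stem cells, had 7.22, 7.25 and 6.36 RPKM in the C2C12-Notch1 wells, against 1.29, 2.51 and 1.26 RPKM in the C2C12-control wells. Wells of the lines did not overlap for Myod1, Myog or Pax7. In both lines the lowest Myod1 and Myog well was the one with HEK-Jag1WT, by little for Myog in C2C12-control. Without the HEK line term Myod1 had an edgeR adjusted p of 0.0776. Msc, musculin, a repressor of Myod1 activity, averaged 4.22 ± 2.62 RPKM in C2C12-Notch1 wells against 20.6 ± 2.48 RPKM in C2C12-control wells. Mef2c averaged 1.2 ± 0.291 RPKM in C2C12-Notch1 wells against 2.77 ± 0.28 RPKM in C2C12-control wells. Eya1, a transcriptional coactivator, averaged 2.03 ± 0.303 RPKM in C2C12-Notch1 wells against 4.18 ± 0.47 RPKM in C2C12-control wells. Fusion genes were divided, with 5 of 19 higher (26.3%) and 8 lower (42.1%), or 5 and 5 by DESeq2. Among all tested genes 28.5% were higher and 29.3% lower. The fusogen Tmem8c, known as Myomaker, was at 0.98 and the hedgehog coreceptor Cdon at 0.68, while the tetraspanin Cd9 was at -1.12 and Rac1 at -0.62.

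Tested genes that mark fibroblasts and stromal cells fell. Of 15 listed markers 8 were tested and 8 fell, 5 more than 2-fold (median -2.75). The 15 markers summed to 512 to 546 RPKM in C2C12-Notch1 wells and 1765 to 1897 RPKM in C2C12-control wells. Most of that fall was in Ly6a, which averaged 107 against 1120 RPKM, while Col3a1 averaged 377 against 461 RPKM. The defining markers Lum and Thy1 had 0 RPKM in every well. Of the other untested members, Pi16, Mfap5 and Clec3b averaged higher in C2C12-Notch1 wells and Fap and Dpt lower, all at low levels. Cd34, a surface marker of stromal progenitors, averaged 2.09 ± 0.57 RPKM in C2C12-Notch1 wells against 11.7 ± 1.35 RPKM in C2C12-control wells. Cd248, endosialin, averaged 2.73 ± 0.713 RPKM in C2C12-Notch1 wells against 21.5 ± 2.41 RPKM in C2C12-control wells. Dcn, the proteoglycan decorin, averaged 0.571 ± 0.348 RPKM in C2C12-Notch1 wells against 4.3 ± 1.42 RPKM in C2C12-control wells. The part of these markers in the matrix results that follow was not tested.

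Matrix genes changed in both directions within each class. Col1a1, the first chain of type I collagen, had 26.3, 25.5 and 23.7 RPKM in the C2C12-Notch1 wells, against 199, 205 and 203 RPKM in the C2C12-control wells, while its partner chain Col1a2 had 246, 206 and 217 RPKM in the C2C12-Notch1 wells, against 351, 344 and 346 RPKM in the C2C12-control wells. The 2 chains of one trimer fell by unequal amounts, at log2 differences of -3.02 and -0.65. In the basement membrane, Col4a1 had 149, 153 and 137 RPKM in the C2C12-Notch1 wells, against 41.6, 46.5 and 43 RPKM in the C2C12-control wells. Its partner Col4a2 averaged 127 ± 6.71 RPKM in C2C12-Notch1 wells against 39.2 ± 2.53 RPKM in C2C12-control wells. Both rose, whereas the laminin chain Lama5 fell, at -0.71, as did nidogen, Nid1, at -0.56. The laminin chain Lama4 had 2 reads in the C2C12-Notch1 wells and 73 in the C2C12-control wells, a fold of 25.2 (95% counting interval 6.73 to 212). Of 17 tested basement membrane genes 5 rose (29.4%) and 7 fell (41.2%), and of 7 fibrillar collagen genes 4 rose and 3 fell. The test against a 1.2-fold change left 3 basement membrane genes and 2 fibrillar collagen genes higher. Among 27 tested glycoproteins and proteoglycans 10 rose (37.0%) and 12 fell (44.4%), 4 and 6 more than 2-fold. Postn, periostin, averaged 35.7 ± 0.541 RPKM in C2C12-Notch1 wells against 9.9 ± 1.49 RPKM in C2C12-control wells. Thbs1, thrombospondin, averaged 166 ± 26.2 RPKM in C2C12-Notch1 wells against 66.1 ± 7.95 RPKM in C2C12-control wells. Ogn, osteoglycin, averaged 60.2 ± 15.2 RPKM in C2C12-Notch1 wells against 21.9 ± 3.69 RPKM in C2C12-control wells. Bgn, Fbln5, an elastic fibre protein, and Emilin1 fell, at -5.47, -4.20 and -2.56.

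Enzymes and inhibitors that remodel matrix were mostly lower, 16 of 27 against 6 higher (median -0.43), or 3 higher by DESeq2. Loxl3, a collagen cross-linker, averaged 14.1 ± 2.49 RPKM in C2C12-Notch1 wells against 71.6 ± 6.88 RPKM in C2C12-control wells. The inhibitor Timp1 averaged 501 ± 37.7 RPKM in C2C12-Notch1 wells against 814 ± 4.12 RPKM in C2C12-control wells, while Loxl2 rose by 0.75. Of 16 tested integrin genes 6 fell, 3 more than 2-fold, 2 rose and 8 were not called (median -0.06). DESeq2 called 2 lower and 1 higher, and 1 rose without either well with HEK-control or HEK-Jag1Ndr. Itga3, a laminin receptor chain, averaged 22.7 ± 5.63 RPKM in C2C12-Notch1 wells against 59.6 ± 14.3 RPKM in C2C12-control wells, while the abundant common chain Itgb1 was at 0.03 and not called.

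Most tested cadherin genes rose, while Cdh11 had no reads in C2C12-Notch1 wells. Of 45 listed 21 were tested, 14 rose, 10 more than 2-fold, and 5 fell (median 0.92). All 7 tested beta protocadherins, single-exon adhesion genes in a cluster, rose, 6 of them more than 2-fold. Pcdhb14 averaged 3.04 ± 0.943 RPKM in C2C12-Notch1 wells against 0.743 ± 0.301 RPKM in C2C12-control wells. Pcdhb22 averaged 3.39 ± 0.278 RPKM in C2C12-Notch1 wells against 1.12 ± 0.35 RPKM in C2C12-control wells, with the caution that cluster members resemble each other in sequence. The giant cadherins Fat1 and Fat4 rose by 1.18 and 1.38 and Cdh10 by 1.96. Guidance molecules included larger single changes in both directions, with 11 of 42 higher (26.2%) and 17 lower (40.5%). In the test against a 1.2-fold change 7 were higher. The repellent Slit2 averaged 0.484 ± 0.103 RPKM in C2C12-Notch1 wells against 3.69 ± 0.205 RPKM in C2C12-control wells. Sema3a averaged 8.38 ± 0.742 RPKM in C2C12-Notch1 wells against 20 ± 2.17 RPKM in C2C12-control wells. Nrp2, a semaphorin coreceptor, averaged 10.1 ± 0.348 RPKM in C2C12-Notch1 wells against 21.1 ± 2 RPKM in C2C12-control wells. These genes all fell, while the ephrin genes that follow rose. The ligand Efna5 averaged 3.61 ± 0.317 RPKM in C2C12-Notch1 wells against 0.956 ± 0.133 RPKM in C2C12-control wells. Efnb2 averaged 43.2 ± 1.79 RPKM in C2C12-Notch1 wells against 22.4 ± 2.58 RPKM in C2C12-control wells. The receptor Ephb2 averaged 6.79 ± 1.49 RPKM in C2C12-Notch1 wells against 2.44 ± 0.677 RPKM in C2C12-control wells.

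Most tested receptors for growth factors fell. Of 19 tested 13 fell, 5 more than 2-fold, and 1 rose (median -0.34). DESeq2 called 8 lower, and 2 to 3 rose without a well with HEK-Jag1WT or HEK-Jag1Ndr. Pdgfrb, a receptor for platelet-derived growth factor, had 15.9, 25.3 and 17.2 RPKM in the C2C12-Notch1 wells, against 41.7, 68.6 and 52 RPKM in the C2C12-control wells. Ghr, the growth hormone receptor, averaged 17.1 ± 1.2 RPKM in C2C12-Notch1 wells against 39.1 ± 3.75 RPKM in C2C12-control wells. Igf2r, which clears Igf2 and sorts lysosomal enzymes, averaged 3.12 ± 0.99 RPKM in C2C12-Notch1 wells against 7.94 ± 0.577 RPKM in C2C12-control wells. Flt1, a receptor for Vegf, averaged 0.644 ± 0.39 RPKM in C2C12-Notch1 wells against 3.08 ± 0.739 RPKM in C2C12-control wells. The ligands went both ways, 13 higher (41.9%) and 12 lower (38.7%) of 31, or 9 and 7 by DESeq2. Pdgfb, a ligand of Pdgfrb, averaged 17.5 ± 0.682 RPKM in C2C12-Notch1 wells against 3.79 ± 0.476 RPKM in C2C12-control wells, higher where its receptor was lower. Igf2 itself averaged 4.11 ± 0.535 RPKM in C2C12-Notch1 wells against 1.52 ± 0.248 RPKM in C2C12-control wells. Areg, a ligand of the epidermal growth factor receptor, averaged 14.4 ± 2.25 RPKM in C2C12-Notch1 wells against 34 ± 1.32 RPKM in C2C12-control wells. Ptn, pleiotrophin, had 0 reads in C2C12-Notch1 wells and was at least 38.4-fold lower, and Hgf fell, at -1.63. Of 6 tested insulin-like growth factor binding proteins 5 fell and 0 rose, with Igfbp4 at -3.08, Igfbp7 at -1.29 and Igfbp6 at -0.40, while Igfbp5 was at -0.07 and not called. Igfbp3 had 3 reads in C2C12-Notch1 wells against 109 in C2C12-control wells, a fold of 25.1 (95% counting interval 8.36 to 124).

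In the Wnt pathway 3 of 5 tested ligands fell and 0 rose. Of 22 tested genes 10 fell (45.5%), 6 more than 2-fold, and 6 rose (27.3%). Wnt10b averaged 0.855 ± 0.552 RPKM in C2C12-Notch1 wells against 9.85 ± 3.08 RPKM in C2C12-control wells. Wnt10a had 1 read in C2C12-Notch1 wells against 265 reads in C2C12-control wells, and Wnt5a had 0 reads in C2C12-Notch1 wells and was at least 16.6-fold lower. The antagonist Dkk2 averaged 1.88 ± 0.729 RPKM in C2C12-Notch1 wells against 16.6 ± 1.75 RPKM in C2C12-control wells. The receptor genes Fzd3 and Lgr4 rose by 2.00 and 0.80 and the nuclear factor Lef1 by 0.83, while Fzd1 and Fzd7 fell, at -0.91 and -0.72.

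Targets of YAP, a cofactor driven by tension and spreading, were higher in 10 of 17 cases, 6 more than 2-fold, and lower in 2, or in 1 by DESeq2 (median 0.45). Ctgf, a matricellular protein, had 152, 162 and 228 RPKM in the C2C12-Notch1 wells, against 54.8, 44.9 and 57.7 RPKM in the C2C12-control wells. Cyr61, of the same family, had 68, 84.7 and 82.2 RPKM in the C2C12-Notch1 wells, against 31.7, 31.7 and 35.1 RPKM in the C2C12-control wells. Ankrd1, a sarcomere-associated repeat protein, averaged 448 ± 48.3 RPKM in C2C12-Notch1 wells against 232 ± 5.1 RPKM in C2C12-control wells. Ajuba averaged 39.8 ± 1.84 RPKM in C2C12-Notch1 wells against 18.4 ± 1.77 RPKM in C2C12-control wells, while Nt5e fell, at -3.23. Response genes of BMP and TGF-beta signalling, which share Ctgf, were higher in 9 of 14 and lower in 2. Id3, an inhibitor of bHLH factors, averaged 139 ± 39.6 RPKM in C2C12-Notch1 wells against 65.5 ± 23.3 RPKM in C2C12-control wells. Id1 averaged 71.9 ± 23.7 RPKM in C2C12-Notch1 wells against 37.8 ± 6.01 RPKM in C2C12-control wells. Without the HEK line term the edgeR adjusted p was 0.1 for Id3 and 0.0751 for Id1. Upstream, the BMP antagonist Grem1 averaged 17.5 ± 0.837 RPKM in C2C12-Notch1 wells against 74.3 ± 3.72 RPKM in C2C12-control wells. The ligand subunit Inhbb averaged 30.6 ± 9.63 RPKM in C2C12-Notch1 wells against 5.95 ± 1.28 RPKM in C2C12-control wells. The coreceptor Tgfbr3 averaged 0.319 ± 0.113 RPKM in C2C12-Notch1 wells against 2.5 ± 0.203 RPKM in C2C12-control wells.

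Factors that pattern the embryo differed singly. Of 35 tested patterning factors 9 rose (25.7%) and 11 fell (31.4%), near the shares of all tested genes, 28.5% and 29.3%. Of 11 tested Hox genes 4 rose (36.4%) and 2 fell (18.2%). DESeq2 called 5 patterning factors higher and 7 lower, and 1 Hox gene higher and 0 lower. Without either well with HEK-control 0 Hox genes fell, and 1 fell once the HEK-Jag1WT well of C2C12-control was dropped. Prrx1, a homeobox factor of limb mesenchyme, averaged 15.4 ± 3.18 RPKM in C2C12-Notch1 wells against 56.1 ± 3.65 RPKM in C2C12-control wells. Sox11 averaged 17.4 ± 0.222 RPKM in C2C12-Notch1 wells against 6.25 ± 1.37 RPKM in C2C12-control wells. Sox8 averaged 2.6 ± 0.228 RPKM in C2C12-Notch1 wells against 0.565 ± 0.241 RPKM in C2C12-control wells. Prrx1 fell and both Sox genes rose. Mkx, a tendon homeobox factor, averaged 1.81 ± 0.347 RPKM in C2C12-Notch1 wells against 0.0783 ± 0.0784 RPKM in C2C12-control wells. Hoxb3 averaged 2.58 ± 0.225 RPKM in C2C12-Notch1 wells against 0.567 ± 0.0647 RPKM in C2C12-control wells. A pair of nuclear receptor genes fell. Pparg, the master factor of fat cells, averaged 4.03 ± 1.19 RPKM in C2C12-Notch1 wells against 12.5 ± 1.47 RPKM in C2C12-control wells. The retinoic acid receptor Rarb averaged 0.526 ± 0.248 RPKM in C2C12-Notch1 wells against 5.43 ± 1.05 RPKM in C2C12-control wells. Of 15 tested imprinted genes 6 rose and 3 fell; besides H19 and its neighbour Igf2, the gains were in Peg10, Plagl1, Mest and Peg3, and the losses in Dcn, Igf2r and Gab1, the last at -0.22. Gab1 lost its call when any HEK-Jag1WT or HEK-Jag1Ndr well was dropped (edgeR adjusted p 0.186 to 0.197). DESeq2 and the test against a 1.2-fold change each had 2 lower. Peg10 averaged 23.6 ± 1.09 RPKM in C2C12-Notch1 wells against 8.81 ± 0.494 RPKM in C2C12-control wells. Plagl1 averaged 1.13 ± 0.0543 RPKM in C2C12-Notch1 wells against 0.0907 ± 0.0556 RPKM in C2C12-control wells.

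Glycolysis genes fell along most of the pathway. Of 28 listed 24 were tested, and Gapdh, with at most 18 reads in any well, was not. Of those tested 17 fell, 6 more than 2-fold, and 5 rose (median -0.65). Whichever well was left out 3 rose, and 2 did by DESeq2 and in the test against a 1.2-fold change. At entry, the glucose transporter Slc2a1 averaged 87.1 ± 8.36 RPKM in C2C12-Notch1 wells against 150.5 ± 11.6 RPKM in C2C12-control wells. The hexokinase Hk1 averaged 82.6 ± 1.56 RPKM in C2C12-Notch1 wells against 163 ± 2 RPKM in C2C12-control wells. Pfkp, the platelet form of phosphofructokinase, had 27.5, 30.1 and 27 RPKM in the C2C12-Notch1 wells, against 80.3, 80.9 and 80.8 RPKM in the C2C12-control wells, while the muscle form Pfkm rose by 0.42. Downstream, Tpi1 averaged 453 ± 34.1 RPKM in C2C12-Notch1 wells against 852 ± 9.79 RPKM in C2C12-control wells. Pgk1, which yields the first ATP, averaged 544 ± 69.8 RPKM in C2C12-Notch1 wells against 811 ± 65 RPKM in C2C12-control wells. At the exit, Slc16a3, the exporter of lactate, had 0.584, 0.192 and 0.452 RPKM in the C2C12-Notch1 wells, against 42.7, 42.8 and 40.3 RPKM in the C2C12-control wells. Ldha, which makes lactate, averaged 804 ± 50.5 RPKM in C2C12-Notch1 wells against 1301 ± 37.9 RPKM in C2C12-control wells. Genes of the hypoxia response, which share Pdk1 with this list, fell in 18 of 22 cases, 9 more than 2-fold, and rose in 1, or in 0 by DESeq2 and when a HEK-control or HEK-Jag1WT well was dropped. Bnip3, a mitophagy receptor, averaged 19.2 ± 8.41 RPKM in C2C12-Notch1 wells against 73.6 ± 3.85 RPKM in C2C12-control wells. Ndrg1 averaged 63.9 ± 13.6 RPKM in C2C12-Notch1 wells against 175 ± 17.8 RPKM in C2C12-control wells. The carbonic anhydrase Car9 averaged 1.54 ± 0.446 RPKM in C2C12-Notch1 wells against 7.22 ± 0.906 RPKM in C2C12-control wells, and Adm, adrenomedullin, had 0 reads in C2C12-Notch1 wells and was at least 25.5-fold lower.

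**Figure D4:**
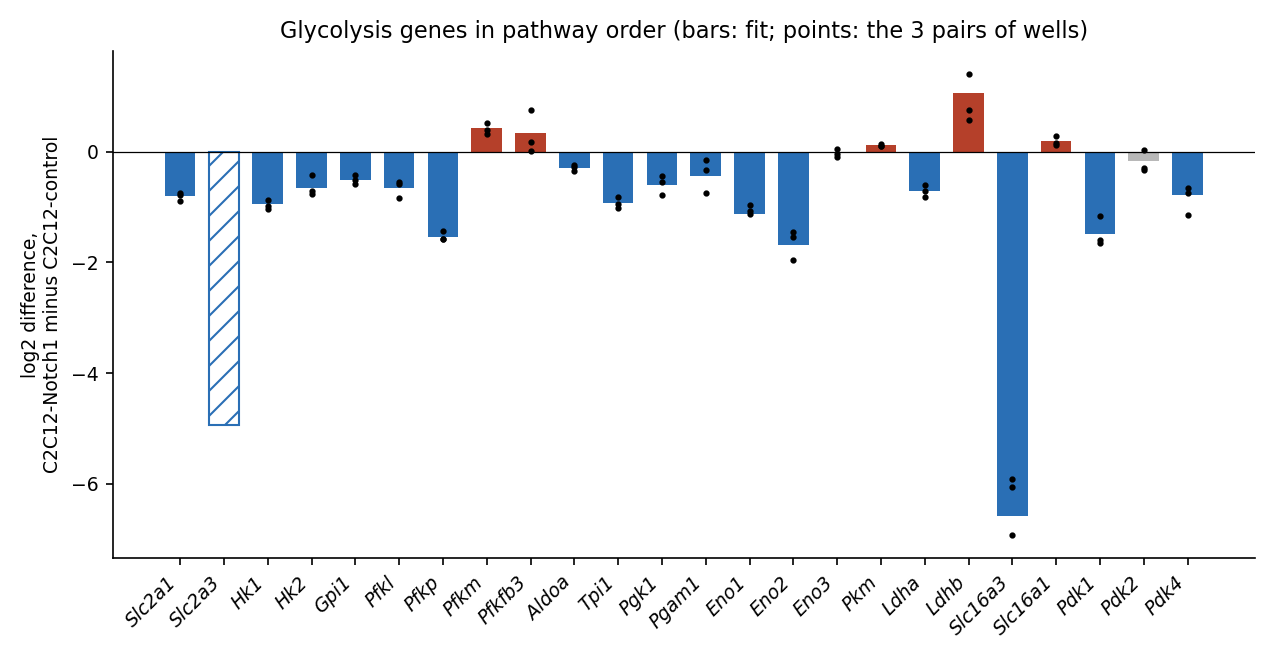
Log2 differences between C2C12-Notch1 and C2C12-control wells for the 24 tested glycolysis genes, from glucose entry on the left to lactate export and pyruvate dehydrogenase kinases on the right; bars are the fit, points the 3 pairs of wells, grey bars were not called and the hatched bar for Slc2a3 is the bound for 0 reads. Most bars point down, Slc16a3 reaches lowest, and 5 bars point up.

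Called genes of mitochondrial respiration and of ribosomes were mostly higher, none more than 2-fold. Of 57 tested oxidative phosphorylation genes 31 rose and 5 fell (median 0.19). Ndufa10 of complex I averaged 188 ± 14.2 RPKM in C2C12-Notch1 wells against 133 ± 7.76 RPKM in C2C12-control wells. Uqcrc1 of complex III averaged 208 ± 3.84 RPKM in C2C12-Notch1 wells against 148 ± 7.51 RPKM in C2C12-control wells. Cox8a of complex IV averaged 568 ± 24.9 RPKM in C2C12-Notch1 wells against 417 ± 24.3 RPKM in C2C12-control wells. The test against a 1.2-fold change kept 10 higher and 0 lower of these, and DESeq2 20 and 1. Without either well with HEK-Jag1Ndr 2 fell, and without either with HEK-Jag1WT 3. Of 45 listed ribosomal protein genes 34 were tested, 19 rose and 1 fell (median 0.20). With 1 well dropped, 11 to 16 of them rose, as did 9 by DESeq2 and 6 in the test against a 1.2-fold change. The count of 11 came with the HEK-Jag1WT well of C2C12-control dropped, a fit in which 2726 of 11209 tested genes rose. Whether the list exceeds that share was not tested. Lysosome genes were lower in 19 of 31 cases and higher in 2 (median -0.26). In the test against a 1.2-fold change 7 were lower, 0 were higher by DESeq2, and 1 was higher without a well with HEK-Jag1WT or HEK-Jag1Ndr. Npc1, which exports cholesterol, averaged 13.9 ± 0.539 RPKM in C2C12-Notch1 wells against 25.8 ± 0.354 RPKM in C2C12-control wells. Psap, the precursor of saposins, averaged 626 ± 33.9 RPKM in C2C12-Notch1 wells against 867 ± 31.7 RPKM in C2C12-control wells.

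Stress genes moved in both directions. Of 35 tested unfolded protein response genes 23 rose and 4 fell (median 0.42), and 1 fell in the test against a 1.2-fold change. Hspa5, the main chaperone of the endoplasmic reticulum, had 271, 276 and 299 RPKM in the C2C12-Notch1 wells, against 167, 169.9 and 166 RPKM in the C2C12-control wells. Atf4, the factor of the integrated stress response, averaged 158 ± 7.84 RPKM in C2C12-Notch1 wells against 99.1 ± 3.31 RPKM in C2C12-control wells. Its target Trib3 averaged 22.9 ± 3.05 RPKM in C2C12-Notch1 wells against 8.64 ± 0.463 RPKM in C2C12-control wells. The kinase Eif2ak3, known as PERK, fell, at -0.53. Of 16 tested heat shock genes 5 rose (31.25%) and 6 fell (37.5%), near the shares of all tested genes, 28.5% and 29.3%. Without either well with HEK-Jag1Ndr, and by DESeq2, 3 rose. The small heat shock gene Cryab was at -1.31, while the cytosolic Hsp90ab1 was at 0.06 and not called. Among 34 tested genes of glutathione and oxidative stress 15 rose (44.1%) and 9 fell (26.5%). DESeq2 called 5 lower, and the test against a 1.2-fold change 9 higher. Gclc, the rate-limiting enzyme of glutathione synthesis, averaged 37.3 ± 1.67 RPKM in C2C12-Notch1 wells against 19.7 ± 0.585 RPKM in C2C12-control wells. Nqo1, a quinone reductase, averaged 161 ± 13.3 RPKM in C2C12-Notch1 wells against 106 ± 2.99 RPKM in C2C12-control wells. Both are known targets of Nrf2. The extracellular Sod3 averaged 1.26 ± 0.613 RPKM in C2C12-Notch1 wells against 19.3 ± 1.55 RPKM in C2C12-control wells. Gpx3, which is secreted, had 2 reads in C2C12-Notch1 wells against 178 in C2C12-control wells. Of the p53 targets 15 of 25 rose and 5 fell, none more than 2-fold, and 3 fell by DESeq2, with Mdm2 at 0.45 and Sesn2 at 0.84. Genes of DNA replication and mitosis stayed within 2-fold too, 18 of 40 lower (45%) and 7 higher (17.5%), with a median of -0.11. Shares of all tested genes were 29.3% and 28.5%. DESeq2 called 7 of them lower and the test against a 1.2-fold change 4. Over all 11154 tested genes these 2 tests called 1913 and 1906 lower. Of 22 tested cell cycle inhibitors and cyclins 7 rose (31.8%) and 9 fell (40.9%), or 6 and 6 by DESeq2. Among them the kinase inhibitor Cdkn1b fell, at -0.78.

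The difference between the lines was also read beside each HEK line. Among 5475 genes with at least 100 reads in all 6 wells, the 3 single-pair log2 ratios spanned a median of 0.19, and 6 genes spanned more than 1. These single-pair values rest on 1 well a side, so they carry no test, and their 95% intervals cover counting error only. Col6a1, a chain of type VI collagen, had 26.7, 129.8 and 38.2 RPKM in the C2C12-Notch1 wells, against 58.5, 128 and 84.8 RPKM in the C2C12-control wells. Its ratio was -1.15 (-1.31 to -1.004) beside HEK-control, 0.02 (-0.08 to 0.13) beside HEK-Jag1WT and -1.15 (-1.29 to -1.02) beside HEK-Jag1Ndr, so the line difference was seen beside HEK-control and HEK-Jag1Ndr. Col6a2, its partner chain, had a similar pattern in the same order of HEK lines, with -1.31 (-1.65 to -0.9985), 0.00 (-0.19 to 0.19) and -1.64 (-1.93 to -1.38). Neither was called over all wells, at edgeR adjusted p 0.259 and 0.295, while without either well with HEK-Jag1WT the log2 differences were -1.16 for Col6a1 and -1.51 to -1.52 for Col6a2, and both were called. Both were also called without either well with HEK-control, at -0.52 for Col6a1 and -0.68 for Col6a2, but not without either well with HEK-Jag1Ndr. Dropping a well takes its partner out of the line comparison, so these calls rest on the remaining pairs only. Without HEK-control those pairs stood at 0.02 and -1.15 for Col6a1, so the calls do not measure agreement between pairs. Has2, which makes hyaluronan, had 21.2, 76.9 and 46 RPKM in the C2C12-Notch1 wells, against 12.3, 24.2 and 15.1 RPKM in the C2C12-control wells. Its call was lost without either well with HEK-Jag1Ndr (edgeR adjusted p 0.121 and 0.161). Neat1, a nuclear noncoding RNA, had a ratio of 1.21 (1.11 to 1.31) beside HEK-control, -0.11 (-0.27 to 0.04) beside HEK-Jag1WT and -0.05 (-0.16 to 0.05) beside HEK-Jag1Ndr. Ptgs2, a prostaglandin synthase, and Kif5c, a kinesin, also ranked among the 10 widest, with the C2C12-Notch1 well higher beside every HEK line.

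Notch target genes were also read beside each HEK line. Of 14 listed 9 were tested, 4 rose, 2 fell and 3 were not called (median 0.22). In the test against a 1.2-fold change 1 fell. Hey1, a transcriptional repressor, had 38.1, 176 and 81.9 RPKM in the C2C12-Notch1 wells, against 15.1, 119 and 40.1 RPKM in the C2C12-control wells. Its C2C12-Notch1 level was higher beside all 3 HEK lines, with single-pair ratios of 1.30 (1.02 to 1.60), 0.56 (0.44 to 0.69) and 1.02 (0.87 to 1.18), the largest value being that of the wells without introduced ligand. Nrarp, a feedback inhibitor of Notch, had 0.747, 29.9 and 2.22 RPKM in the C2C12-Notch1 wells, against 0.195, 6.3 and 0.779 RPKM in the C2C12-control wells, on few reads beside HEK-control. Heyl, a relative of Hey1, had 5.98, 33.1 and 14.1 RPKM in the C2C12-Notch1 wells, against 6.94, 111 and 27.5 RPKM in the C2C12-control wells. It was lower in C2C12-Notch1 wells, with ratios of -0.24 (-0.60 to 0.11), -1.75 (-1.92 to -1.58) and -0.96 (-1.17 to -0.76), and was not called over all wells (edgeR adjusted p 0.0983) but was without either well with HEK-control or HEK-Jag1WT. The lines thus differed in opposite directions at these related genes beside HEK-Jag1WT. Hes1 averaged 30.9 ± 1.35 RPKM in C2C12-Notch1 wells against 26.9 ± 7.37 RPKM in C2C12-control wells and was not called. It was called without either well with HEK-Jag1WT (edgeR adjusted p 0.0103 and 0.0119). For Heyl and Hes1, such calls with a well dropped rest on the remaining pairs and do not measure their agreement. With the HEK line term left out, Hey1, Nrarp and Notch3 had edgeR adjusted p values of 0.617, 0.475 and 0.472. Among the receptors Notch3 rose by 0.44. Of 28 tested Notch processing and nuclear cofactor genes 6 rose (21.4%) and 9 fell (32.1%), 0 of them more than 2-fold (median -0.04). All tested genes had 28.5% higher and 29.3% lower, and DESeq2 called 1 of the 28 higher and 5 lower. The nuclear partner Rbpj was at -0.54 and the gamma-secretase subunit Ncstn, nicastrin, at -0.74.

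**Figure D5:**
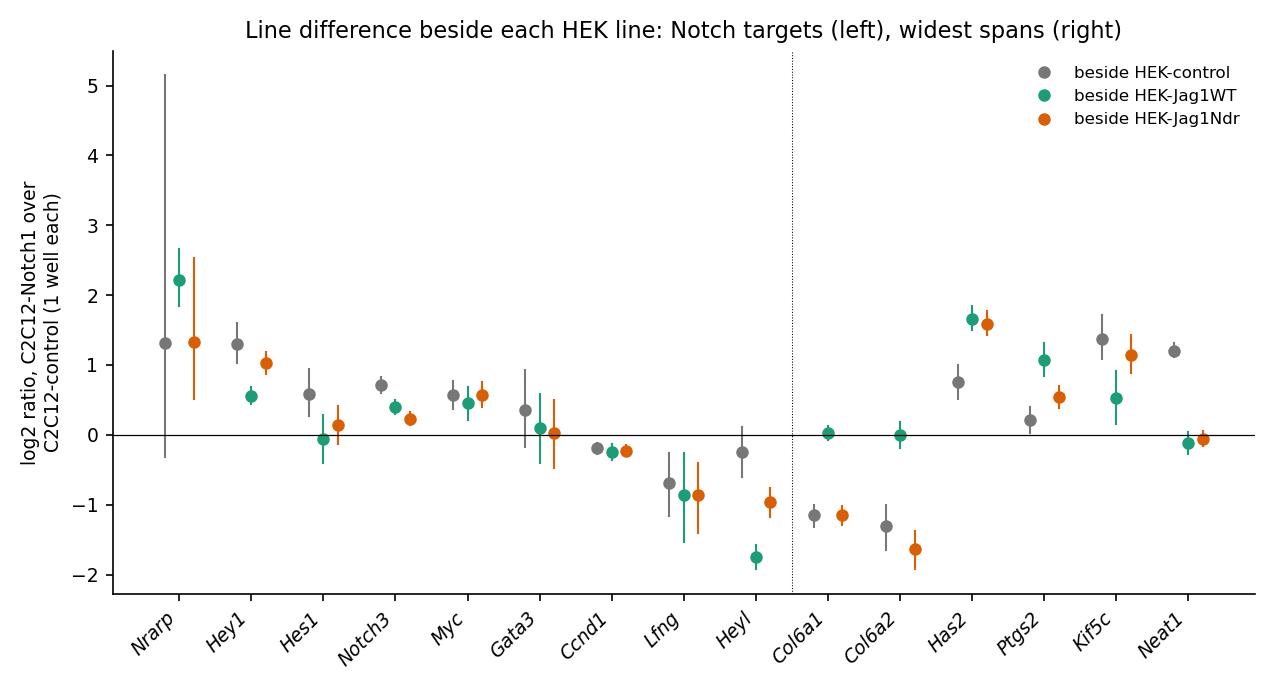
Log2 ratio of the C2C12-Notch1 well over the C2C12-control well beside each HEK line, with 95% counting intervals; Notch target genes stand left of the dotted line and genes with the widest spans right of it. Heyl lies lowest beside HEK-Jag1WT, Col6a1 and Col6a2 lie near 0 beside HEK-Jag1WT and below 0 beside the other HEK lines, and Neat1 lies above 0 beside HEK-control.

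Markers of C2C12 myoblasts were present in both lines. The 15 C2C12 markers summed to 4411 to 4602 RPKM in C2C12-Notch1 wells and 4416 to 4890 RPKM in C2C12-control wells, with 7 of 14 tested higher and 3 lower. The 17 HEK markers, read in the mouse table, summed to 215 to 233 RPKM in C2C12-Notch1 wells, against 300.4 to 329.5 RPKM in C2C12-control wells, with Krt18, Epcam, Sall4, Pax2 and Six2 at 0 in every well. Within that list Krt19, a keratin, averaged 8.68 ± 3.18 RPKM in C2C12-Notch1 wells against 74.9 ± 2.92 RPKM in C2C12-control wells. Stmn2, a neuronal tubulin regulator, averaged 85.4 ± 3.62 RPKM in C2C12-Notch1 wells against 40.1 ± 3.25 RPKM in C2C12-control wells. Whether reads from HEK cells added to the values of this list was not tested. The 16 markers of endothelial, blood and epithelial cells summed to 9.86 to 13 RPKM in C2C12-Notch1 wells, against 20.4 to 26 RPKM in C2C12-control wells, with 13 of the 16 under 1 RPKM in every well. The ribosomal RNA precursor Rn45s, a measure of carry-over past polyA selection, differed between pairs, at 0.63 (0.57 to 0.69), 1.16 (1.10 to 1.21) and -0.15 (-0.19 to -0.11) beside HEK-control, HEK-Jag1WT and HEK-Jag1Ndr.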

How the data were processed

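Gene expression was measured by polyA RNA sequencing of 6 co-culture wells with libraries that do not mark strand, per the labels' protocols. The submitters' processing notes name STAR, mm9 and hg19. How reads were assigned to a species is not given in the sources used here. Read counts per gene and well, as whole numbers, were deposited by the authors for mouse and for human, with RPKM values beside them, per the file headers. From 23905 mouse entries 472 exact repeats were dropped.

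Counts were fitted with edgeR 4.0.16 in R 4.3.3 (TMM scaling, filterByExpr, robust quasi-likelihood test, Benjamini-Hochberg adjustment at 0.05) with additive terms for C2C12 line and HEK line. The model left 2 residual degrees of freedom, so an effect particular to 1 pair of lines counted as spread. It covered 11154 of 23433 genes, and genes with fewer reads were not tested. Among these were Gapdh, Hspa8, Rpl3 and Hmgcs1, with at most 18, 15, 5 and 0 reads in any well. Whether few reads on a gene reflect low expression or the way reads were assigned was not tested. The deposited RPKM values served for levels and, with limma 3.58.1, for an alternative test on log2(RPKM + 0.1) and on log2(RPKM + 1). The DESeq2 1.42.0 Wald test, other scalings and filters, a fit without the HEK line term, a test against a 1.2-fold change and leaving out each well were also run. Leaving out a well also takes its partner out of the line comparison, since the HEK line term then fits that partner exactly. Values after ± are SDs over 3 wells of a line. Counting intervals (95%, exact) and floors of 3 reads cover counting error only. Single-pair log2 ratios used a prior count of 2.

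Lists and the naming rule were chosen with earlier results of these data known. The rule took Notch1 and Jag1, the 15 higher and 15 lower called genes with the largest log2 differences at an average log2 CPM of at least 2, the 10 higher and 10 lower with the largest RPKM differences, in each list up to 8 members of smallest p with up to 4 of the opposite direction, and the 10 genes with the widest span between pairs. Adm, Car9, Ccl7, Cdh10, Eif2ak2, Emilin1, Evc2, Fzd1, Gbp3, Hsp90ab1, Ifi35, Ifitm2, Ifnar1, Igtp, Irgm2, Itgb1, Myh1, Myh3, Myh4, Neb, Oas1b, Oas1g, Pgk1, Slc2a3, Stat2, Tap1, Tap2, Tnni2, Tnnt2, Trim25, Ttn, Tyk2 and Wnt5a were named after their values were seen. Some genes that the rule took are not reported here. No sequences or chromosome positions were analysed here.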

Additional observations from a re-analysis of the deposited data

Results flagged for a closer look

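The ribosomal RNA precursor Rn45s differed in direction between pairs of wells. The log2 ratio of the C2C12-Notch1 well over the C2C12-control well was 0.6261 beside HEK-control and 1.158 beside HEK-Jag1WT, but -0.1469 beside HEK-Jag1Ndr, with 95% counting intervals on opposite sides of 0. Each ratio rests on 1 well a side, so the difference between HEK lines was not tested.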

How the results depend on the processing

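DESeq2 counted 1628 genes higher and 1913 lower, and the test against a 1.2-fold change 1520 and 1906. With limma on log2(RPKM + 1), whose pseudocount shrinks low genes, 180 genes were more than 2-fold higher. Requiring 50 reads in every well of a line, which removes low genes, left 138 more than 2-fold higher and 428 more than 2-fold lower. Leaving out each well gave 2487 to 2884 higher, 2708 to 3037 lower, 323 to 361 more than 2-fold higher and 669 to 802 more than 2-fold lower. Notch1 then ranged from a log2 difference of 3.382 to 3.883. Neat1, which was not called, ranged from -0.08065 to 0.6499 and Tnnt2, also not called, from -0.0647 to 0.039. The wells of a pair share only a HEK line. With that block left out, 2799 genes were higher and 2970 lower, and 308 and 708 changed more than 2-fold. Of the 244 genes tried, 11 lost their call without it, namely Ccl25, Csf1, Has2, Hey1, Id1, Id3, Jag1, Myod1, Notch3, Nrarp and Ptgs2. Without 1 well, Ccl25, Gab1, Has2, Notch1 and Ptgs2 lost theirs. Calls made up of higher genes ranged from 44.37% to 50.46% over all settings. The shallowest mouse library, 2263529 reads, sets what can be seen of low genes.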
